A study of Mus musculus with 4 samples.

Results

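Conventional type 1 dendritic cells (cDC1) were sought among the immune cells of MC38 tumours, a mouse colorectal tumour line grown under the skin, by a gate on raw transcript counts. A cell was a member when it held at least 2 UMIs (unique molecular identifiers, 1 per captured transcript) of Xcr1 and Clec9a together and at least 5 of H2-Ab1. It could hold at most 1 UMI each of Fscn1, of Cd209a and of Cd3d, Cd3e and Cd3g together, and fewer than 10 C1qa, C1qb and C1qc UMIs per 10000. The gate found 550 members among 39906 cells that passed the filters on genes, UMIs and mitochondrial reads. The members were thus chosen by measured counts of these genes. The mice were 8 weeks old and either wild type (WT) or conditionally deleted for Trim25 (cKO), all injected with 100000 MC38 cells, with 2 libraries per genotype. Cells positive for CD45, the common leukocyte surface protein, had been sorted by flow cytometry before a Chromium 3' library was made. The series title places the loss of Trim25 in T cells. The sources used here do not name the Cre driver. Whether each library stands for its own animal is also not stated, so a p-value here reflects the spread among 4 libraries, which may be technical.

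Type 1 conventional dendritic cells take up dead cells and present their antigens on MHC class I to CD8 T cells, a process called cross-presentation. XCR1, the receptor for the chemokine XCL1 made by NK and CD8 T cells, and CLEC9A, a lectin that binds actin exposed by dying cells, mark this lineage, and the transcription factors IRF8, BATF3 and ID2 maintain it. Plasmacytoid dendritic cells (pDC), a lineage that depends on the transcription factor TCF4 and carries Siglec-H, also use IRF8 and can carry Clec9a in the mouse.

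WT-1 held 110 members, WT-2 177, cKO-1 93 and cKO-2 170. Their median depth was 16198, 15106, 16829 and 16305 UMIs per cell, and their summed counts were 1925484, 3065507, 1696884 and 3232274 UMIs. Over all cells that passed the filters the median was 7796, 7864, 8258 and 10017 UMIs. Between 39 and 57 cell barcodes were shared by any pair of libraries. At the edge of the gate, 126 members held exactly 2 UMIs of Xcr1 and Clec9a together and 81 held 3, while 214 cells with a single UMI and 4773 with none met every other condition. H2-Ab1 alone kept out 229 cells, C1q genes 123, Cd209a 111, Cd3 genes 35 and Fscn1 9.

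The members were not 1 kind of cell. Xcr1 was absent from 332 of the 550, Clec9a from 30, and 188 carried both. Siglech UMIs fell into separate ranges: 362 members had none, 21 had 1, 11 had 2 to 4 and 156 had 5 or more. In all, 160 members also met a gate for pDC (at least 2 UMIs of Siglech and none of Xcr1). The gates for cDC2, mature dendritic cells, monocytes, macrophages, T, NK and B cells were set so that no member could meet them. They therefore do not show whether members hold transcripts of those classes. After these counts were seen, the members were split 3 ways. Xcr1-positive members held at least 1 Xcr1 UMI and at most 1 Siglech UMI and numbered 211. Clec9a-only members held no Xcr1 and at most 1 Siglech UMI and numbered 172. Siglech-high members held at least 2 Siglech UMIs and numbered 167, and 7 of them carried Xcr1. The label of type 1 conventional dendritic cells therefore did not hold for all members, which are called gated cells below.

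**Figure D1:**
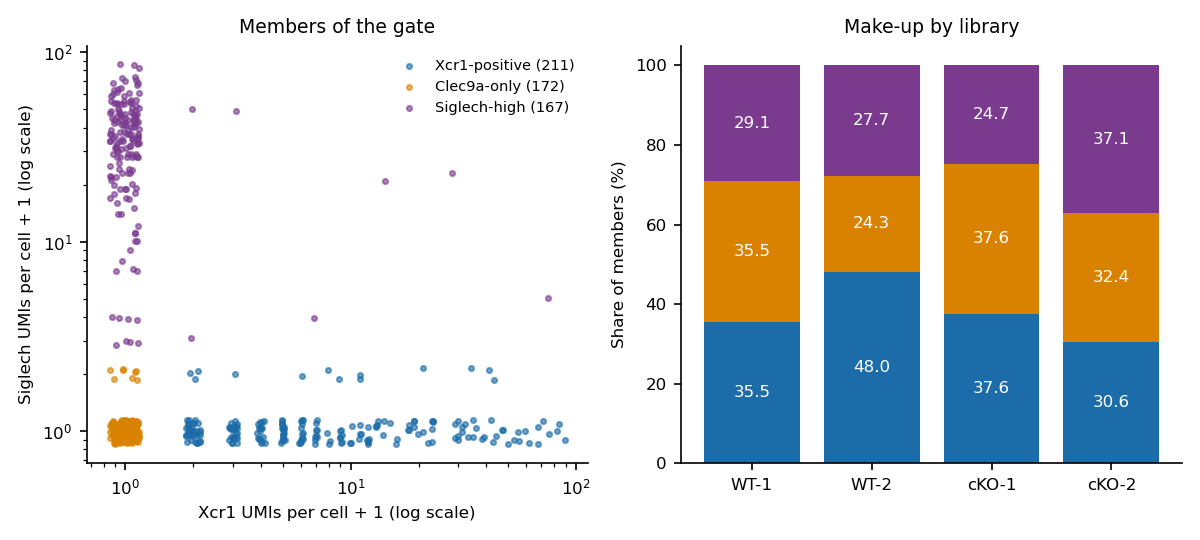
Left, Xcr1 against Siglech UMIs of each of the 550 gated cells (1 point per cell, 1 added to each count, both axes logarithmic, points jittered), coloured by subset; right, the percentage of each library's gated cells in each subset. Cells with many Siglech UMIs lie apart from cells with Xcr1, and the Siglech-high share ran from 24.7% in cKO-1 to 37.1% in cKO-2.

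The make-up differed between libraries without following genotype. Xcr1-positive cells were 35.5% of the gated cells in WT-1, 48.0% in WT-2, 37.6% in cKO-1 and 30.6% in cKO-2. Siglech-high cells were 29.1%, 27.7%, 24.7% and 37.1%. WT-2 had the largest Xcr1-positive share and cKO-2 the largest Siglech-high share, so sums over all gated cells weight the subsets differently in each library. That weight moves with several of the levels below, and its part in them was not tested.

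All levels below are counts per 1e+06 UMIs (CPM) of the summed cells of a library. Because the gate and the split were made on these same cells, levels between classes are a description with no test. Xcr1 (reverse strand of chromosome 9, 123852315 to 123862029, GENCODE vM21 on GRCm38) stood at 230.1 CPM in WT-1, 374 in WT-2, 335 in cKO-1 and 186 in cKO-2 over all gated cells. In the Xcr1-positive cells it stood at 553, 671, 807 and 534 CPM. The highest value in any other gated class was 9.36 CPM, in mature dendritic cells. The gates for cDC2, macrophages, monocytes and B cells kept out cells with as many Xcr1 and Clec9a UMIs as a member, and the pDC gate kept out cells with Xcr1. Low levels of these genes in those classes are therefore set by the gates, apart from Clec9a in pDC. Clec9a (chromosome 6, 129408862 to 129424763, forward strand) was at 346, 348, 335 and 382 CPM over all gated cells, with little spread between libraries. The gate requires Clec9a in every member without enough Xcr1, so its presence in each subset is fixed by the choice of cells: 456 ± 40.0 CPM in Xcr1-positive, 246 ± 35.4 in Clec9a-only and 322 ± 64.8 in Siglech-high cells (mean ± SD, n = 4 libraries). The pDC gate, which shares 160 cells with the Siglech-high subset, had 207 ± 32.7 CPM and cDC2 had 8.41 ± 0.931.

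The lineage transcription factors, which the gate did not use, differed in level between the subsets. Batf3, which cDC1 need for their development, was at 92.3 and 102 CPM in the Xcr1-positive cells of the WT libraries and at 92.3 and 89.3 in those of cKO. In the Clec9a-only cells it was at 78.4, 96.5, 56.7 and 72.1 CPM, and in the Siglech-high cells at 5.10, 16.9, 0 and 2.80 CPM. The Siglech-high libraries lay below every library of the other subsets. pDC had 0.781 to 4.70 CPM. After every cell was thinned to 3000 UMIs, Batf3 was seen in 59 of 190 Xcr1-positive cells, 37 of 164 Clec9a-only cells and 0 of 167 Siglech-high cells. At that depth the count of 0 allows a share of up to 1.80%, a limit of counting error over cells pooled from all libraries. In T cells 0.666% of 4354 thinned cells had a Batf3 UMI. Their median depth before thinning was 7419 to 8708 UMIs, against 15273 to 18494 for the gated cells. Before thinning, the share of all gated cells with Batf3 was 34.7% to 46.3% per library. In Siglech-high cells it was then 9.38% in WT-1, 4.08% in WT-2, 0% in cKO-1 and 3.17% in cKO-2. Id2, an inhibitor of E proteins, averaged 2488 ± 216 CPM in Xcr1-positive, 1352 ± 318 in Clec9a-only and 194 ± 131 in Siglech-high cells. Tcf4, the E protein of the pDC lineage, ran the other way, with 148 ± 34.9, 369 ± 10.3 and 3743 ± 299 CPM. Irf8, shared by both lineages, was 1728 ± 116 CPM in Xcr1-positive, 735 ± 132 in Clec9a-only and 2170 ± 182 in Siglech-high cells, with the Clec9a-only cells lowest in each library. Zbtb46, a factor of conventional dendritic cells, averaged 118 ± 24.4, 66.6 ± 25.8 and 10.1 ± 3.39 CPM.

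**Figure D2:**
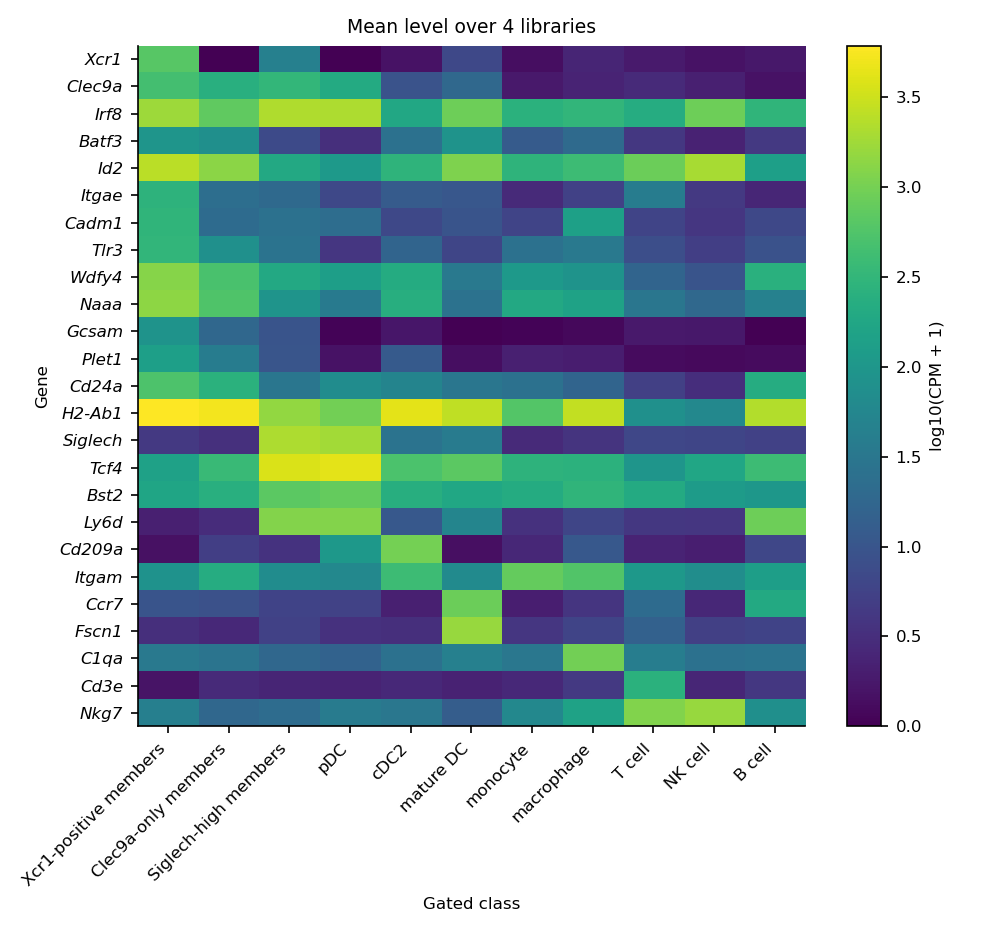
Mean level over the 4 libraries, as log10(CPM + 1), of marker genes (rows) in the 3 subsets of gated cells and in 8 other gated classes (columns). Siglech-high cells share their pattern with the pDC column, which holds 160 of the same cells and was also chosen by Siglech. Batf3, Id2, Wdfy4 and Naaa are carried by Xcr1-positive and, at a lower level, Clec9a-only cells.

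Several surface receptors of cDC1 were concentrated in the Xcr1-positive cells, and others were not. Itgae, the CD103 integrin chain, was at 214, 328, 349 and 237 CPM there, and at most 44.1 CPM in any library of the other subsets. Cadm1, an adhesion molecule of the lineage, was at 259, 251, 439 and 244 CPM, against at most 42.5. Tlr3, an endosomal sensor of double-stranded RNA, was at 283, 302, 412 and 249 CPM, with 78.2 ± 17.9 CPM in Clec9a-only and 26.3 ± 24.4 in Siglech-high cells. Ly75, the endocytic receptor DEC-205, averaged 127 ± 19.99, 21.3 ± 13.6 and 8.00 ± 5.42 CPM in the same order, and Cd24a 543 ± 64.5, 257 ± 55.6 and 29.3 ± 25.1 CPM. The libraries of the Xcr1-positive cells did not overlap those of the other subsets for any of these 5 genes. Sirpa, which marks other dendritic cells, was lowest in Xcr1-positive cells at 32.3 ± 8.68 CPM and reached 110.3 ± 17.5 in Clec9a-only and 162 ± 34.1 in Siglech-high cells. After thinning to 3000 UMIs, Cd8a was seen in 3.68% of Xcr1-positive, 3.05% of Clec9a-only and 25.7% of Siglech-high cells. Flt3 was seen in 52.1%, 35.4% and 31.1% in the same order, and Cd207 in 0 of 521 gated cells.

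Wdfy4 and Naaa, from the genes of cross-presentation and of the wider cDC1 signature, were graded over the subsets. Some other signature genes were not. For Plpp1 and Gpr141b the second-highest mean was that of Siglech-high cells, at 10.8 and 9.37 CPM. Wdfy4, which cross-presentation of cell-associated antigen requires, was at 1322, 1146, 1448 and 1139 CPM in Xcr1-positive cells, 506 ± 54.8 in Clec9a-only and 194 ± 57.9 in Siglech-high cells. Naaa, a lysosomal amidase, was at 1280.5, 1527, 1458 and 1315 CPM, then 558 ± 70.8 and 90.5 ± 59.8. Clec9a-only cells thus lay between the other subsets for Wdfy4 and Naaa, and above cDC2, which had 214 ± 23.3 CPM of Wdfy4 and 236 ± 22.7 of Naaa. The sum of 10 cDC2 markers was 205 to 261 CPM per library in Xcr1-positive, 544 to 669 in Clec9a-only and 367 to 650 in Siglech-high cells. For 10 monocyte markers it was 3736 to 4429, 6396 to 7446 and 6507 to 8239 CPM. H2-Ab1, a gene of the gate, averaged 6127 ± 394, 5174 ± 672 and 1495 ± 289 CPM.

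Ranked by the ratio of mean CPM over the highest other gated class, the leading genes of all gated cells were Xcr1 (42.4-fold), Sept3, Plet1, Tlr3 and Ccser1, followed by Itgae, Naaa, Wdfy4, Plpp1 and Ppt1 among named genes. In the Xcr1-positive cells the ratio for Xcr1 was 96.6-fold, and Gcsam, Gpr141b, Ank1, Sept3, Plet1, Gpr33 and Tlr3 came next. Both Xcr1 ratios are set in part by the gates, which chose members by Xcr1 and limited it in several other classes. Gcsam was at 85.5, 110, 78.1 and 77.7 CPM there and at most 1.52 CPM in any library of another gated class. Within the gated cells, 771 genes were higher in every Siglech-high library than in every library of the other subsets, led by Grm8, Iglc3, Siglech, Ly6d, Klk1 and Mctp2. The Siglech-high cells also held Cd8b1 at 410 CPM and Cd8a at 168 ± 27.6 CPM, against 10.2 ± 8.33 in Xcr1-positive cells. By the same count 339 genes were highest in Xcr1-positive cells. Those led by Xcr1 included Itgae, Hepacam2, Cadm1 and Plpp1, and also Birc5, a gene of mitosis.

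By the same count 287 genes were highest in Clec9a-only cells. The first 13 were Ifit3b, Abcb1a, Gbp2, Ccl5, Gbp7, Ifitm1, Ifit1bl1, AA467197, Creb5, Rin2, Ddx58, Ddx60 and Ifit3. Ifit3b was at 147 CPM there against 19.0 in Xcr1-positive cells. Ifit3, one of the family that binds viral RNA, was at 660 and 872 CPM in the Clec9a-only cells of WT and 591 and 563 in those of cKO, at 91.0, 317, 48.3 and 177 in Xcr1-positive and at 148, 41.6, 42.6 and 98.8 in Siglech-high cells. Each Clec9a-only library stood above each library of the other subsets. cDC2 had 534, 768, 318 and 614 CPM, overlapping the Clec9a-only values.

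Many interferon-induced promoters hold the core of the interferon-stimulated response element (ISRE), to which STAT and IRF factors bind, and the windows of Ifit1 and Ifit3 are shown with that of Xcr1 because these genes stand for the sets highest in different subsets. Each is the 250 bases before the RefSeq transcript start in GRCm38.p6, 5′ to 3′ on the gene's strand, at chr19:34640639-34640888 (+) for Ifit1, chr19:34583279-34583528 (+) for Ifit3 and chr9:123862030-123862279 (-) for Xcr1. Capitals mark matches to GAAANNGAAA on either strand.
Ifit1: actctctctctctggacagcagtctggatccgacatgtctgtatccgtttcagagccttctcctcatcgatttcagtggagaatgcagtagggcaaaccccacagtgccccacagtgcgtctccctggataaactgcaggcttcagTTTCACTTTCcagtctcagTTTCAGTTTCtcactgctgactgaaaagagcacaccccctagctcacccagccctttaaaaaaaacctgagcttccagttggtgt
Ifit3: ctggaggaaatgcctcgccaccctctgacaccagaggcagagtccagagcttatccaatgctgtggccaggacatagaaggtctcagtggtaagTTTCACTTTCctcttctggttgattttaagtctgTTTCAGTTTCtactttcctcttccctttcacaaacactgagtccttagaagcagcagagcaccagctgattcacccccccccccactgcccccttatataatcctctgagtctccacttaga
Xcr1: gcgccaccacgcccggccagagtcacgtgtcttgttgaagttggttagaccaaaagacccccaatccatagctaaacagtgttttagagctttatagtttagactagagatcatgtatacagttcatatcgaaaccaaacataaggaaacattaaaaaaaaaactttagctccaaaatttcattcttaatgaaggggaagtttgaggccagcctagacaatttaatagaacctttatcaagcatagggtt
The matches begin 104 and 85 bases before the start of Ifit1 and 156 and 122 bases before that of Ifit3. Of 27 type I interferon response genes with a window in the table, of 36 listed, 14 held the letters (51.9%), against 3.46% of 27025 genes with a window. Of the cDC1 lists, 4 of 15 other signature genes (26.7%), 1 of 8 transcription factors and 0 of 10 surface receptors with a window held them. Neither of the windows of Ifit2, 1 for each of its starts, held a match. A match is a description of letters, and its absence in the Xcr1 window says only that these letters are not there.

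Gated cells were 1.08% of the kept cells in WT-1 (exact 95% binomial interval 0.885 to 1.30), 1.46% in WT-2 (1.26 to 1.69), 1.13% in cKO-1 (0.916 to 1.39) and 1.81% in cKO-2 (1.55 to 2.10). The libraries interleaved, with a mean of 1.27 ± 0.274% in WT and 1.47 ± 0.479% in cKO (SD, n = 2; exact permutation p = 0.667, two-sided). With 2 libraries against 2 this exact permutation test cannot go below p = 0.33. Intervals cover counting error only. Without cKO-2 the difference of 0.202 percentage points became -0.136, and for Xcr1-positive cells alone it was -0.0520.

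Among all cells in the cDC1, cDC2, mature dendritic cell and pDC gates, the gated cells made up 24.2% in WT-1, 23.4% in WT-2, 32.2% in cKO-1 and 29.8% in cKO-2. Both cKO libraries lay above both WT libraries, by 7.18 percentage points on average, with p = 0.33 (exact permutation, two-sided), the smallest this design allows. The Xcr1-positive cells alone were 8.57%, 11.2%, 12.1% and 9.11% of dendritic cells, and there the genotypes overlapped (difference 0.701 points, exact permutation p = 0.667). Members with at most 1 Siglech UMI were 17.1%, 16.9%, 24.2% and 18.7%. Those with at least 4 UMIs of Xcr1 and Clec9a were 14.5%, 14.4%, 16.6% and 21.0%. In both of these settings the genotypes did not overlap (exact permutation p = 0.33 for each). These are shares, so fewer cells of the other dendritic classes and more gated cells cannot be told apart.

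**Figure D3:**
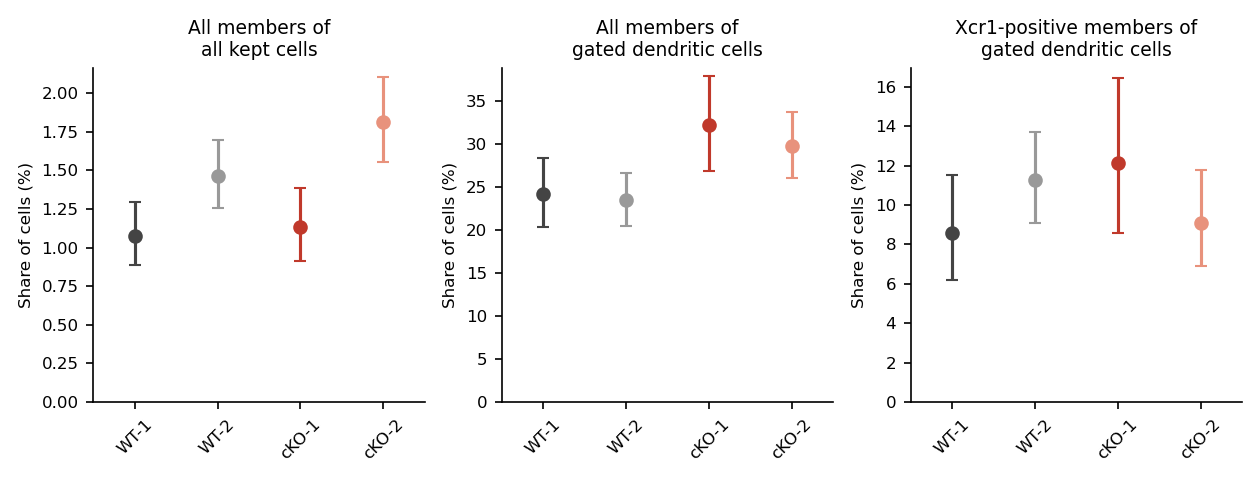
Percentage of cells in each library with exact 95% binomial intervals (counting error only) for all gated cells among kept cells, all gated cells among gated dendritic cells, and Xcr1-positive cells among gated dendritic cells. The genotypes separate only in the middle panel, at 23.4% to 24.2% in WT and 29.8% to 32.2% in cKO.

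Cycling was scored in the gated cells only, so the shares have no other class beside them. With 29 cells of under 3000 UMIs left out and the rest thinned to that depth, 28.8% of gated cells in WT-1, 32.1% in WT-2, 28.9% in cKO-1 and 24.1% in cKO-2 held at least 5 UMIs of 30 proliferation genes such as Birc5 and Stmn1. The means were 30.5 ± 2.33% in WT and 26.5 ± 3.41% in cKO (SD, n = 2; exact permutation p = 0.667, two-sided). The Xcr1-positive cells were at 41.2%, 50.6%, 51.9% and 40.0%, Clec9a-only cells at 23.7%, 25%, 24.2% and 34.0%, and Siglech-high cells at 21.9%, 8.16%, 8.70% and 3.17%. In each library the Xcr1-positive share was the highest of the 3. Over all gated cells 82 lay within 1 UMI of the limit, so the share is a range on a scale and not a count of a cell type. With a limit of 3 UMIs the genotype difference was 1.79 points in place of -3.99. With a limit of 8 UMIs the shares were 11.5%, 20.8%, 16.9% and 14.5%. Of the same thinned cells 8.25% held a Mki67 UMI and 7.49% a Top2a UMI.

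The comparison of genotypes asks whether loss of Trim25, which the title places in T cells, went with changes in these dendritic cells. Trim25 itself, a ubiquitin ligase of the RIG-I pathway on chromosome 11 (88999376 to 89020293, forward strand), was at 186 CPM in WT-1, 166 in WT-2, 154 in cKO-1 and 187 in cKO-2, and the genotypes overlapped (log2 fold change of cKO over WT -0.03 ± 0.17 SE). In T cells it was at 81.3 and 83.7 CPM in WT against 68.0 and 70.6 in cKO. The assay reads transcript ends, so a Trim25 level does not show whether part of the gene was deleted. Vsir, which encodes the checkpoint protein VISTA named in the title, was at 47.3, 33.6, 34.8 and 32.8 CPM in gated cells, overlapping between genotypes (-0.24 ± 0.24).

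No gene passed an adjusted p of 0.05 between genotypes over all gated cells: edgeR's quasi-likelihood test with Benjamini-Hochberg adjustment called 0 of 9909 genes (0%), with 476 (4.8%) at an unadjusted p under 0.05. DESeq2 called 11 of 17329 genes (0.0635%). The count of 0 rested on having all the libraries: edgeR called 36 genes with WT-1 left out, 12 with WT-2, 44 with cKO-1 and 58 with cKO-2, where the lone library of a genotype is assumed to vary like the others. The groups' CPM did not overlap for 33% of all genes tested, 16.3% with cKO higher and 16.7% with cKO lower. Genes named below for genotype missed the threshold unless stated otherwise.

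The gate chose cells by Xcr1 and Clec9a, so their levels by genotype are a description: the log2 fold change of Xcr1 was -0.23 over all gated cells and that of Clec9a 0.05. Of the lineage factors, no change was called in edgeR, with Irf8 -0.12 ± 0.12 and Batf3 -0.31 ± 0.20. Thinned to 3000 UMIs, an Irf8 UMI was seen in 85.6% of gated cells in WT-1, 83.9% in WT-2, 71.1% in cKO-1 and 81.3% in cKO-2, with both cKO values lower (exact permutation p = 0.33, two-sided). Before thinning the values were 94.5%, 93.8%, 91.4% and 92.9%, and 29.4% of thinned T cells held an Irf8 UMI. The thinned share with Id2, named here after its values were seen, was 69.2% and 67.9% in WT against 49.4% and 53.6% in cKO, a difference of -17.0 points (exact permutation p = 0.33, two-sided), and 72.3% of thinned T cells held Id2. Before thinning the Id2 shares were 83.6% and 77.4% against 64.5% and 67.6%. Summed over all gated cells Id2 was at 1498, 1787, 1249 and 1457 CPM (-0.27 ± 0.14, adjusted p = 0.999 in edgeR). In Xcr1-positive cells the thinned share was 100% and 97.5% against 88.9% and 88%, while the CPM of Id2 overlapped between genotypes (-0.05 ± 0.13). The thinned shares with Xcr1, Clec9a and Batf3 overlapped. Of 12 cDC1 transcription factors 4 were above 0 (median -0.14), of 14 surface receptors 4 (median -0.20) and of 17 other signature genes 2 (median -0.12), against 49.8% of all genes and a median of -0.002. In the Xcr1-positive cells alone the counts were 4 of 12, 7 of 14 and 10 of 17, with medians of -0.07, 0.02 and 0.04. The list of transcription factors includes Tcf4 and that of surface receptors includes Sirpa. These 2 genes mark other dendritic cells, so the counts are not of cDC1 genes alone. Ly75 had the smallest unadjusted p of the receptors, at 69.1 CPM in WT-1, 81.2 in WT-2, 53.6 in cKO-1 and 40.8 in cKO-2 (-0.69 ± 0.21, adjusted p = 0.837 in edgeR). Its cKO values lay below both WT values, as they did within the Xcr1-positive cells, at 149 and 138 against 115 and 105 CPM.

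The 12 genes nearest the threshold were Ccl3, Hspa1b, Nr4a2, Ptgs2, mt-Nd2, Il1b, Il1r2, Ccl4, Otud1, Mpp7, Dennd4a and Cxcl2, with adjusted p from 0.144 to 0.287 in edgeR. In 11 the cKO value was higher and in 1, Hspa1b, lower, and in all 12 the genotypes did not overlap, which their choice by small p favours. DESeq2 called 8 of them. Ccl3, an inflammatory chemokine, was at 91.9 CPM in WT-1, 105 in WT-2, 272 in cKO-1 and 196 in cKO-2 (1.24 ± 0.19, adjusted p = 0.144 in edgeR). With at least 4 UMIs of Xcr1 and Clec9a asked of each cell the change of Ccl3 was 0.30, and without the cells rich in NK markers described below it was 0.77. In the Xcr1-positive cells Ccl3 was high in cKO-1 alone, at 385 CPM against 23.4, 60.9 and 52.7, and there its log2 fold change went from 2.25 to 0.15 without the NK-marked cells, of which cKO-1 held 1. Its neighbour in the chemokine cluster, Ccl4, was at 397, 444, 668 and 1181 CPM (1.15 ± 0.21) and was highest in Siglech-high cells, at 665, 1104, 1319 and 2405 CPM. In Xcr1-positive cells Ccl4 was at 145, 160, 332 and 387 CPM, again without overlap (1.25 ± 0.19, adjusted p = 0.0809), but without the NK-marked cells the change was 0.51 (adjusted p = 0.998). Over all gated cells the change of Ccl4 was 1.09 without the NK-marked cells (adjusted p = 0.546 in edgeR). With at least 4 UMIs of Xcr1 and Clec9a asked of each cell it was 1.18 (adjusted p = 0.999 in edgeR). It was 0.74 with likely doublets left out, a setting that also drops every Siglech-high cell.

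Il1b, the inflammatory cytokine interleukin-1 beta, was at 768 CPM in WT-1, 492 in WT-2, 2058 in cKO-1 and 1169 in cKO-2 (1.37 ± 0.24, adjusted p = 0.157). Within Xcr1-positive cells it was at 867, 385, 1517 and 1116 CPM, and within Clec9a-only cells at 895, 1135, 3907 and 1862. Within Siglech-high cells the log2 fold change of Il1b was 0.017. DESeq2 gave Il1b a change of 1.36 over all gated cells and did not call it (unadjusted p = 0.0068). Il1b UMIs were also found in T cells, which should lack it: 17.5% and 19.2% of thinned T cells in WT against 22.9% and 25.7% in cKO, and 33.7%, 29.8%, 51.8% and 40.4% of thinned gated cells. Monocytes had 2000.4, 1852, 3572 and 3142 CPM. The part that free RNA had in the Il1b values was not tested. Il1r2, its decoy receptor, was at 166, 123, 317 and 255 CPM (1.00 ± 0.18). Ptgs2, which makes prostaglandins, was at 30.1, 14.4, 62.5 and 81.4 CPM (1.77 ± 0.30), but within Xcr1-positive cells its genotypes overlapped, at 70.3 and 12.6 against 65.3 and 26.8 CPM. Cxcl2, a neutrophil chemoattractant, rested on few counts, at 10.4, 3.59, 71.9 and 20.7 CPM (2.78 ± 0.58). With at least 4 UMIs of Xcr1 and Clec9a asked of each cell the change of Il1b was 0.65, that of Il1r2 0.61 and that of Cxcl2 1.36.

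Nr4a2, an immediate-early nuclear receptor, was at 87.3, 55.8, 175 and 166 CPM (1.28 ± 0.21, adjusted p = 0.144 in edgeR), and in Xcr1-positive cells at 114, 80.4, 321 and 244 CPM (1.57 ± 0.25, adjusted p = 0.0809). In Clec9a-only cells Nr4a2 overlapped between genotypes. Hspa1b, an inducible heat-shock chaperone, was at 391, 311, 181 and 142 CPM (-1.12 ± 0.18, adjusted p = 0.144). It was lower in both cKO libraries within Xcr1-positive cells (387 and 337 against 86.7 and 209 CPM) and within Clec9a-only cells (585 and 462 against 272 and 180), while Siglech-high cells overlapped. Both genes also respond to the handling of cells during dissociation. The list of 32 immediate-early and dissociation genes had 20 above 0 and a median of 0.06. Hspa1b was likewise lower in the cKO cDC2, with 576 and 425 against 279 and 246 CPM, and its genotype effect in gated cells minus that in cDC2 was -0.20 ± 0.15 (adjusted p = 1.00).

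**Figure D4:**
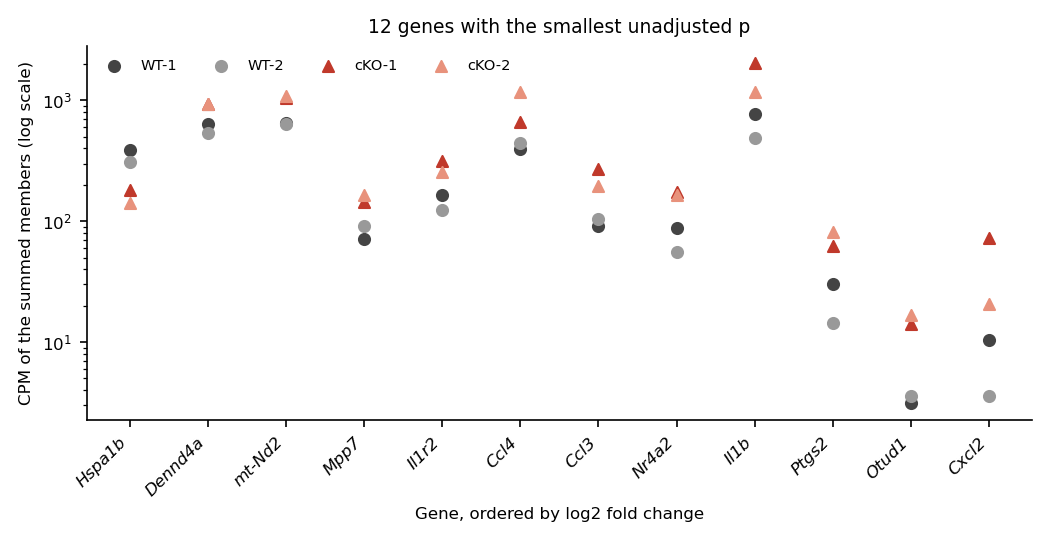
CPM of the summed gated cells (logarithmic axis) in each library for the 12 genes with the smallest unadjusted p, ordered by log2 fold change; circles are WT and triangles cKO libraries. Hspa1b lies lower and the other 11 genes lie higher in cKO with no overlap of the genotypes, and none passed the adjusted threshold in edgeR.

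Type I interferon response genes had mostly lower values in cKO, with no member called in edgeR. Of 33 tested, 10 were above 0 with a median log2 fold change of -0.14, and 15 had both cKO values below both WT values against 16.7% of all genes. In Xcr1-positive cells 4 of 33 were above 0 with a median of -0.30, and 14 did not overlap with cKO lower against 17.1% of all genes. Ifit1 was at 214 CPM in WT-1, 217 in WT-2, 80.7 in cKO-1 and 139 in cKO-2 (-0.94 ± 0.22, adjusted p = 0.479 in edgeR). Ifit2 was at 656, 650.5, 375 and 467 CPM (-0.63 ± 0.15, adjusted p = 0.487) and was among the genes that DESeq2 called (adjusted p = 0.0487). Within the Clec9a-only cells, where these genes were highest, Ifit1 was at 461 and 445 CPM in WT against 196 and 256 in cKO, and Ifit2 at 1175 and 1211 against 729 and 852. Rsad2, an antiviral enzyme, was at 601 and 769 CPM there against 324 and 486. In Siglech-high cells the genotypes overlapped for all 3 genes. Ifit3b and Isg15 overlapped over all gated cells, with changes of 0.02 ± 0.21 and -0.10 ± 0.16.

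**Figure D5:**
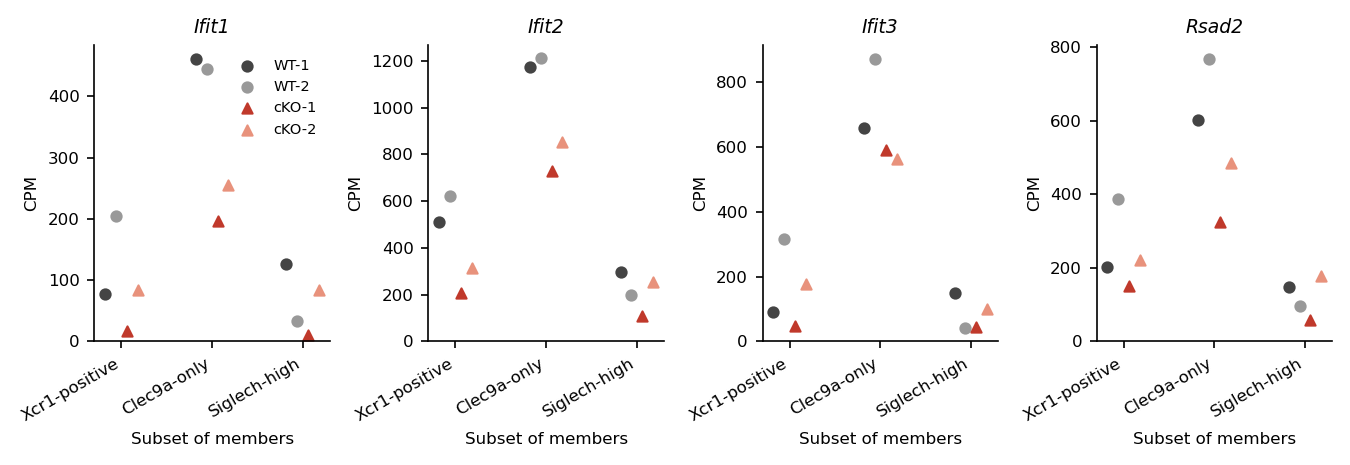
CPM of Ifit1, Ifit2, Ifit3 and Rsad2 in each library (circles WT, triangles cKO) for the 3 subsets of gated cells. Clec9a-only cells are the highest subset in each library for these 4 genes, and both cKO libraries lie below both WT libraries within that subset.

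The same direction was seen in cDC2, which come from the same libraries: Ifit1 was at 366 and 512 CPM in WT against 222 and 337 in cKO. The genotype effect in gated cells minus that in cDC2 was -0.34 ± 0.19 for Ifit1 and -0.02 ± 0.15 for Ifit2 (adjusted p = 1.00 for both in edgeR), so a difference between these classes was not shown for these genes. In all, 5 type I interferon genes did not overlap with cKO higher, against 16.3% of all genes. The interferon gamma response had 10 of 22 above 0 and a median of -0.09. Its member Cxcl10, a CXCR3 ligand, was at 938, 813, 215 and 784 CPM, low in cKO-1 and near the WT values in cKO-2. Nucleic acid sensing and RIG-I pathway genes had 11 of 24 above 0 (median -0.03).

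No antigen presentation gene was called in edgeR. MHC class I and cross-presentation genes had 18 of 28 above 0 (median 0.08) and MHC class II genes 9 of 14 (median 0.08). Of the 28, 11 did not overlap with cKO higher, against 16.3% of all genes, and 3 with cKO lower, against 16.7%. Only 1 of the 28 had an unadjusted p under 0.05 in edgeR. For class II the counts without overlap were 3 higher and 2 lower. In Xcr1-positive cells 22 of 28 and 12 of 14 were above 0, against 50.8% of all genes. Cd74, the invariant chain, was at 4894, 5988, 6404 and 7162 CPM (0.32 ± 0.12), and H2-DMa, a peptide-loading chain, at 214, 240.1, 299 and 279 CPM (0.35 ± 0.15), neither past the threshold (adjusted p = 0.972 and 0.999 in edgeR). Costimulatory and checkpoint ligands had 7 of 16 above 0 (median -0.01), maturation and migration genes 12 of 22 (0.05), cytokines and chemokines 11 of 22 (0.05) and chemokine and adhesion receptors 11 of 17 (0.05). Growth factor receptors and survival genes had 13 of 27 above 0 (-0.01), dead cell uptake 6 of 17 (-0.07), proliferation 12 of 30 (-0.07), glycolysis and hypoxia 12 of 24 (-0.03), unfolded protein response 13 of 19 (0.04), oxidative phosphorylation 9 of 30 (-0.07) and lipid handling 10 of 24 (-0.04). No member of any of these lists passed the threshold in edgeR over all gated cells, and DESeq2 called Ccl3 of the chemokines. Cd274, which encodes PD-L1, overlapped between genotypes at 116, 153, 58.9 and 120 CPM.

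Within the Xcr1-positive cells edgeR called 2 of 7557 genes (0.0265%, with 4.35% at an unadjusted p under 0.05), Gzmb and Nkg7, both genes of cytotoxic lymphocytes. Gzmb was at 17.9 CPM in WT-1, 30.2 in WT-2, 474 in cKO-1 and 435 in cKO-2 (4.17 ± 0.27, adjusted p = 0.000125), and Nkg7 at 5.51, 11.9, 69.6 and 83.1 CPM (2.997 ± 0.38, adjusted p = 0.0456). The summed level of 10 NK markers, of which none was at 0 in all libraries, was 41.4, 82.9, 692 and 782 CPM. Gzmb and Nkg7 are themselves among these markers, so the sum moves with them by construction. The sum of 12 T cell markers was 16.5, 27.6, 68.2 and 74.1 CPM. The cells with 10 or more UMIs of the NK markers numbered 0, 0, 1 and 2. Without those cells edgeR called 0 of 7389 genes, with 281 at an unadjusted p under 0.05, and the change of Gzmb was -0.01. Gzmb helped to choose those cells, so its fall was in part fixed in advance. DESeq2 was not run on this subset. Leaving out WT-1 gave 48 called genes, WT-2 39, cKO-1 37 and cKO-2 14, with Gzmb among them each time. Over all gated cells the NK marker sum was 47.8, 481, 322 and 466 CPM, low in WT-1 alone, and the cells with 10 or more such UMIs numbered 0, 2, 1 and 5. Without them edgeR again called 0 of 9826 genes, with 464 at an unadjusted p under 0.05.

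The genotype effect was set against that in cDC2 (171, 246, 95 and 177 cells) by an interaction with the library as a term. In edgeR 3 of 10135 genes differed (0.0296%): Ccl4 and S100a9 with the higher value in gated cells (0.0197%) and Cyp7b1 with the lower (0.00987%). Leaving out WT-1 gave 15 called genes, WT-2 19, cKO-1 39 and cKO-2 43. Ccl4 rose by 0.98 ± 0.13 more on the log2 scale in gated cells than in cDC2 (adjusted p = 0.0245), where it stood at 671, 640 and then 545 and 908 CPM. This interaction was not run without the NK-marked cells. Cyp7b1, an oxysterol hydroxylase, was at 129, 127, 93.1 and 61.9 CPM in gated cells against 75.5, 88.7, 219 and 243 in cDC2, where it rose by 1.49 ± 0.17 (adjusted p = 0.0220 in edgeR). Xcr1-positive cells carried little Cyp7b1, 2.76 to 13.4 CPM, and their interaction value was 0.07 (adjusted p = 1.00), while Clec9a-only cells had 51.9 to 409 CPM. For the Xcr1-positive cells the interaction called 3 of 9315 genes (0.0322%), Nkg7, Xcl1 and Klre1, all with the higher value in gated cells (0.0322%). All are expressed by NK cells, and Nkg7 and Klre1 are among the NK markers summed above.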

How the data were processed

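Each library's deposited matrix holds raw UMI counts by gene and barcode. The submitters' processing notes list Cell Ranger, STAR and mm10, without versions. Cells were kept with 300 or more genes, 500 or more UMIs and no more than 15% mitochondrial UMIs. The members, subsets and gene lists were chosen with earlier results of these data known. No doublet caller was run. As an alternative, called likely doublets left out, members with over 3 times the median UMIs were dropped, as were those with at least 2 UMIs of B cell genes, NK genes or Siglech. That setting drops every Siglech-high member.

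Counts were summed per library and class; cells were never replicates. edgeR 4.0.16 in R 4.3.3 ran its quasi-likelihood test after filterByExpr and TMM, with Benjamini-Hochberg adjusted p-values across every tested gene (threshold 0.05); DESeq2 1.42.0, no filter, a replicate block and left-out libraries were alternatives. The edgeR script was tested on simulated data. Shares used exact permutation tests (python 3.11.15, scipy 1.17.1). Aldoa and Ddit3, each with more than 1 identifier, were left out of lists.

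Genes named were those of the gate, Trim25, Vsir, every gene past the threshold, the 12 with the smallest unadjusted p, defining list members and those of largest change at a mean of at least 30 CPM, and the 25 leading genes at a mean of at least 50 CPM; Ifit3, Rsad2, Ifit3b, Isg15, Cd8b1 and genes shown by subset were chosen after their values were seen. Sequences are from RefSeq.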

Additional observations from a re-analysis of the deposited data

Results flagged for a closer look

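For 3 genes the genotype effect in all gated cells differed from that in cDC2 by a test of the difference itself (edgeR interaction with the library as a term). Cyp7b1 differed by -2.26 on the log2 scale (adjusted p = 0.0156), with cKO lower in gated cells and higher in cDC2. Within the gated cells it was carried by Clec9a-only cells, at 252 and 409 CPM in WT and 206 and 51.9 in cKO, and by Siglech-high cells, at 158, 125, 71.9 and 122 CPM. Ccl4 differed by 0.98 (adjusted p = 0.0245), and in Xcr1-positive cells by 1.11 (adjusted p = 0.268). S100a9 differed by 7.61 (adjusted p = 0.0210), from levels of 0 to 2.95 CPM in gated cells and of 8.88, 64.1, 2.02 and 0.830 CPM in cDC2. With no S100a9 UMI in the gated cells of WT-1, the size of that value depends on the fit and is no bound. It rests on the WT-2 cDC2, and without WT-2 its adjusted p was 0.633.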

How the results depend on the processing

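The count of 0 genes called by genotype stayed at 0 without TMM, with at least 4 UMIs of Xcr1 and Clec9a, with likely doublets left out, in Clec9a-only members, in members with low Siglech and without NK-marked cells. It became 11 with DESeq2, 58 with no filter on low counts, 4 in members with under 5 proliferation UMIs before thinning (7, 16, 13 and 18 cells, with median depths of 2731 to 7616 UMIs), 2 in Xcr1-positive and 1 in Siglech-high members (Xcr1 itself), and 12 to 58 with 1 library left out. With the replicate block 5 genes were called, Nr4a2, Il1b, Cxcl2, Ccl3 and Hspa1b, and 27 within Xcr1-positive members; same-numbered libraries did not deviate together (correlation -0.008), so the numbers were not taken as pairs. The interaction with cDC2 called 15 to 43 genes with 1 library left out. The cause of these changes was not tested, beyond the smaller number of samples or genes.

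Differences in share that changed sign were -0.136 points without cKO-2 (range over left-out libraries -0.136 to 0.541) and -0.0520 in Xcr1-positive members for the share of all cells, 1.79 with 3 UMIs and 0.0212 in Xcr1-positive members for cycling, and 0.174 for Clec9a and -2.44 for Batf3 at 2000 UMIs. Log2 fold changes that changed sign, none past the threshold, were Ccl3 at -0.68 and Trim25 at 0.73 in those few members; Il1r2 at -0.048, Mpp7 at -0.042, Trim25 at 0.52 and Irf8 at 0.20 in Siglech-high members; Clec9a at -0.047 with likely doublets left out, -0.032 with low Siglech and -0.31 in Clec9a-only members; Vsir at 0.11, Xcr1 at 0.14 and the Cyp7b1 interaction at 0.067 in Xcr1-positive members; and, without NK-marked cells, Trim25 at 0.0023 over all members and Ptgs2 at -1.52, Vsir at 0.14 and Xcr1 at 0.22 in Xcr1-positive members. Over left-out libraries Trim25 ran from -0.19 to 0.098, Vsir from -0.48 to 0.0036, Xcr1 from -0.71 to 0.17 and Clec9a from -0.049 to 0.14. Of single-gene values under alternatives, 222 kept direction and side of the threshold, 58 passed it, 3 lost it and 22 changed sign. The interaction with mature dendritic cells was not run, with under 20 cells in a library.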
